A study of Mus musculus with 12 samples.

Results

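A group of 7 genes for secreted defence proteins and protease inhibitors was followed in mouse liver through the first day after partial hepatectomy: A2m, Serpina3n, Itih3 and Itih4, which encode inhibitors of proteases or relatives of such inhibitors, and Lcn2, Reg3g and Lbp, which encode antibacterial or bacterium-sensing proteins. They were selected on their strong induction in these same arrays, so their differences between time points describe the choice and carry no test. They are 7 of 19053 named coding genes on the array, and RefSeq accessions tied them to 8 of its 37246 probes. Itih4 had 2 probes, and the others had 1 each. All 8 probes were called well above background on at least 3 of the 12 arrays, the filter used here. A2m and Reg3g passed it only through the later arrays, since neither was well above background on any array at 0 h.

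Livers came from male C57BL/6 mice, wild type and 6 weeks old. The surgery, a 2/3 partial hepatectomy, preceded sampling by 0, 1.5, 12 or 24 h. The labels give 3 mice per time point. No sham-operated group was analysed here, so surgery and anaesthesia cannot be told apart from the loss of liver tissue. RNA was hybridised to 1-colour Agilent arrays (Cy3) with probes for coding and long noncoding transcripts, and each array was taken as 1 mouse, which the labels do not state in so many words.

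Hepatocytes secrete most plasma proteins, and after injury or infection they change which ones they make, a programme called the acute phase response. Interleukin-6 signals through STAT3 and interleukin-1 through NF-kB and C/EBP factors to switch on its genes. A2M traps proteases of many kinds in a cage-like molecule, SERPINA3N is a suicide inhibitor of serine proteases, and the ITIH proteins are the heavy chains of a family that binds hyaluronan. LCN2 withholds iron from bacteria by binding their siderophores, REG3G is a lectin that kills Gram-positive bacteria in the gut, and LBP carries lipopolysaccharide of Gram-negative bacteria to CD14.

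The bases before the transcription start show what the genes carry for these factors, and RefSeq windows (GRCm38.p6) were at hand for 5 of the 7 genes: Lcn2, Reg3g, Serpina3n, Itih3 and Itih4. In the 250 bases before each start, 4 short patterns were searched, the first 3 on both strands: TTCNNNGAA for STAT factors, TTNNGNAA for C/EBP factors, GGGA and TCC spaced by 3 bases for NF-kB, and TATAAA on the coding strand for a TATA box. The 4 windows that held a match are printed 5′ to 3′ on the strand of the gene, with the matches in capitals.
Lcn2: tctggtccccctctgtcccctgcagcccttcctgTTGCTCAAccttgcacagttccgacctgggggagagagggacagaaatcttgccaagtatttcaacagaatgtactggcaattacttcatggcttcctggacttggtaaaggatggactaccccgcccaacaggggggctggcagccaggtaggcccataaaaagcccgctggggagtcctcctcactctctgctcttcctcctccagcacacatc
Reg3g: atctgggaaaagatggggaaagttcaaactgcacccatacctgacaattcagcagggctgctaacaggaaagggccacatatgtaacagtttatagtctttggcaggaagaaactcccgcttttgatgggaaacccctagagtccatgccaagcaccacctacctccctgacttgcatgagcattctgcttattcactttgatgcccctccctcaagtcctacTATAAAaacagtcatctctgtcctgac
Serpina3n: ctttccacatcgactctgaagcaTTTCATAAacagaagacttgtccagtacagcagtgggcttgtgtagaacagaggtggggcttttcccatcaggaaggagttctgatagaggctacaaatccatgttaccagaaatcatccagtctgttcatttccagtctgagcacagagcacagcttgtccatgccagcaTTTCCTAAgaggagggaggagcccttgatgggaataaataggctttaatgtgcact
Itih4: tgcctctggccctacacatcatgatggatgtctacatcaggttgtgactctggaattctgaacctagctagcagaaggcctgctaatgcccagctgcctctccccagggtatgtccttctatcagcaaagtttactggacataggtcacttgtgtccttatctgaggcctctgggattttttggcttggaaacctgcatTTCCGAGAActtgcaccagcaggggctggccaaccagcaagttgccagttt
These windows lie at chr2:32387740-32387989 (minus strand) for Lcn2, chr6:78468875-78469124 (minus strand) for Reg3g, chr12:104406458-104406707 (plus strand) for Serpina3n and chr14:30886226-30886475 (plus strand) for Itih4.

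The STAT pattern occurred in 1 of the 5 windows, that of Itih4, where TTCCGAGAA begins 51 bases before the start. Of all 32851 windows in the table, 7.02% held it. The C/EBP pattern occurred in 2 of the 5, read on the opposite strand: in Lcn2 at 216 bases before the start and in Serpina3n at 227 and at 56 bases. It occurred in 36.8% of all windows. The TATA pattern lay 27 bases before the start in Reg3g, and in 7.59% of all windows. No window of the 5 held the NF-kB pattern, against 3.86% of all. These matches are letters in a short window and were not tested as binding sites. The patterns do not overlap one another in these 4 windows.

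Each value is a log2 spot intensity from which the array's own 75th percentile was subtracted, so 0 is the brightness of that percentile. Arrays that share a scan time in the file headers are called a scan here. Scan 1 held the 3 arrays of 0 h and 1.5 h replicate 1, scan 2 held 1.5 h replicates 2 and 3 with 12 h replicates 1 and 2, scan 3 held 12 h replicate 3 with 24 h replicates 1 and 3, and scan 4 held 24 h replicate 2 alone. No scan held both 0 h and 12 h, or both 0 h and 24 h. The 24 h replicate 2 array stood apart: its 75th percentile was 6210 intensity units against 443 to 599 on the other 11. Its brightest probes lay near the scanner's saturation value, as described with the values they touch. The 6 hepatocyte markers examined were well above background on all 3 arrays of 0 h. Of 31168 probes tested with limma and Benjamini-Hochberg adjustment, 7 differed at 1.5 h from 0 h, 4774 at 12 h and 1698 at 24 h. At 12 h 6.93% of these probes rose and 8.39% fell, and at 24 h 2.83% rose and 2.62% fell. From 12 h to 24 h 6.32% rose and 6.47% fell. Counts of genes called in each list below stand beside these shares. A fit with scan as a block can link 12 h and 24 h to 0 h only through arrays of other times. Over all probes, 1047 of the 4774 calls at 12 h and 43 of the 1698 at 24 h were called in it too.

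**Figure D1:**
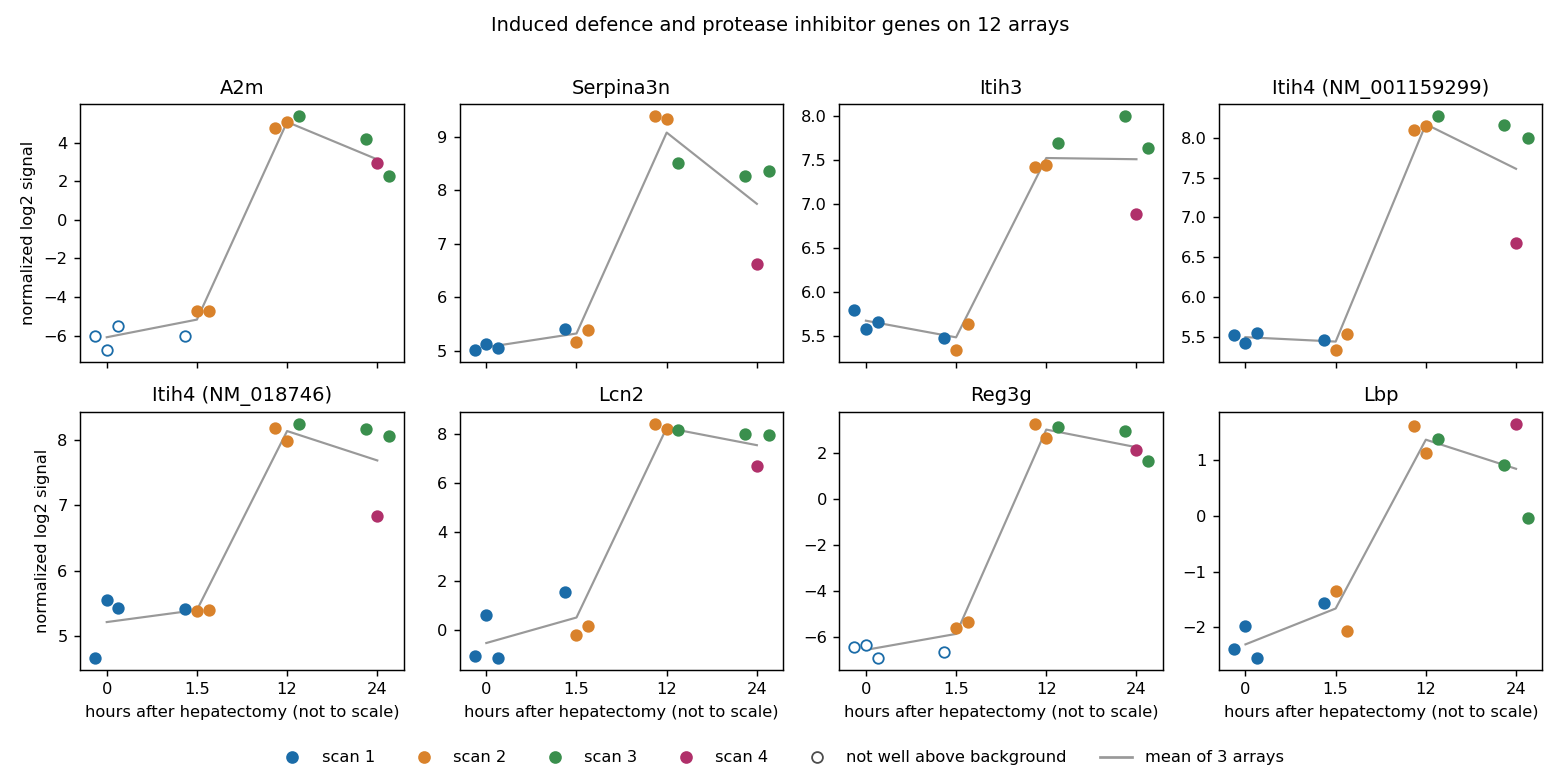
Normalized log2 signal (y axis) of the 8 probes on each of the 12 arrays, by hours after hepatectomy (x axis, not to scale). Points are arrays, coloured by scan, open where not well above background, and grey lines join the means of 3 arrays. All 8 probes are higher on every array of 12 h and 24 h than on any array of 0 h, and 24 h replicate 2 (scan 4) is the lowest 24 h array for Serpina3n, Itih3, Itih4 and Lcn2.

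All 7 genes lay higher on every 12 h array than on any 0 h array, and so did they at 24 h. Without any test, 40.3% of all probes lay wholly above their 0 h values at 12 h and 13.1% at 24 h, and the members' counts follow from the way they were chosen. At 1.5 h only Serpina3n lay wholly above its 0 h values, where 16.4% of all probes did.

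A2m, which encodes alpha-2-macroglobulin, was not measurable above background at 0 h. Its 0 h arrays read −6.02, −6.76 and −5.48, none well above background. At 1.5 h it read −6.03, −4.74 and −4.75, and the 2 arrays of scan 2 were called above background. At 12 h it read 4.78, 5.06 and 5.37, and at 24 h 4.20, 2.93 and 2.25. The 12 h and 24 h arrays thus lay far above all earlier ones and did not overlap each other. Against the lowest measurable signal of the 0 h arrays, A2m was at least 987-fold higher at 12 h and at least 257-fold higher at 24 h, from measured mean differences of 11.15 ± 0.53 and 9.21 ± 0.53 (log2, SE of the fit). These bounds depend on how dim spots are treated: with a normexp background correction (offset 50), which lifts dim values, the differences were 6.74 and 5.22. Within scan 2, which holds 2 arrays of each time, 12 h exceeded 1.5 h by 9.66. With scan as a block, a value that links 0 h to 12 h through the 1.5 h arrays, the 12 h difference was 9.71 and the 24 h difference 7.56.

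From 12 h to 24 h A2m was lower by 1.94 ± 0.53 on the log2 scale, or 3.84-fold. The log2 difference was −1.85 without 24 h replicate 2 and −2.15 within scan 3. No other gene of the 7 was lower at 24 h by so much under all 3 treatments of the arrays.

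No other macroglobulin gene examined was called higher at 12 h or 24 h. Mug1 and Mug2, the murinoglobulins that neighbour A2m on chromosome 6 in the reference gene order, encode single-chain relatives of it and are abundant plasma proteins of the adult mouse. Mug1 read 7.38, 7.18 and 7.29 at 0 h and 6.70, 6.42 and 6.49 at 12 h. Mug1 fell by 0.75 ± 0.22 (limma, adjusted p = 0.0445) and Mug2 fell by 0.98 ± 0.28 (adjusted p = 0.0367) at 12 h. Neither call held with scan as a block (adjusted p = 0.237 and 0.234, differences −0.64 and −0.61), and they held in 7 and 8 of 20 alternatives. At 24 h the Mug2 difference of −0.95 did not pass (adjusted p = 0.0723), while it passed without 24 h replicate 2 (adjusted p = 0.00454). Pzp, the mouse macroglobulin known for its abundance in plasma, read 8.14, 8.34 and 6.12 at 12 h against 7.31 to 7.43 at 0 h. Its low 12 h array belongs to scan 3, as do 2 low 24 h arrays, and the difference of 0.18 ± 0.48 was not called (adjusted p = 0.803). Of the 6 relatives and receptor genes in this list, which also holds Cd109, Lrp1 and Lrpap1, 0 passed upward and 2 downward at 12 h. Their median difference was −0.41, against 0.41 over all probes tested and 0.24 over the coding ones.

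Serpina3n encodes a broad inhibitor of elastase-like proteases and is the mouse relative of human antichymotrypsin that livers release in the acute phase. Its 0 h arrays read 5.01, 5.13 and 5.05, and the 1.5 h arrays 5.40, 5.17 and 5.39. At 12 h Serpina3n read 9.39, 9.34 and 8.51, and at 24 h 8.26, 6.63 and 8.35. The first 2 of the 12 h arrays, both of scan 2, stood above the third by nearly a log2 unit, and the lowest 24 h array was replicate 2. Serpina3n was 16.2-fold higher at 12 h than at 0 h (log2 4.02 ± 0.43) and 6.43-fold higher at 24 h (2.69 ± 0.43). Without 24 h replicate 2 the 24 h value was 9.49-fold, and with scan as a block the log2 difference was 4.22.

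On 24 h replicate 2 the probes of this gene and 3 others lay near the limit of the scanner. Serpina3n reached 93.5% of that array's saturation value, against 25.7% and 28.7% on the other 24 h arrays. Lcn2 stood at 97.1%, Itih3 at 112%, and the Itih4 probes at 97.2% and 108%. A processed intensity can pass the saturation value because it is corrected after the scan, and no spot of any array was marked as saturated. On the other 11 arrays these 5 probes stayed at or below 53.6%. Relatives lay near that limit too on 24 h replicate 2, whose saturation value was 656543 intensity units. Serpina3m read 788870, Ambp 675460 and Mug1 660146. Serpina3k read 615272, Itih2 613389, Mug2 603243 and Pzp 591832. The 24 h values of these relatives are subject to the same limit.

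**Figure D2:**
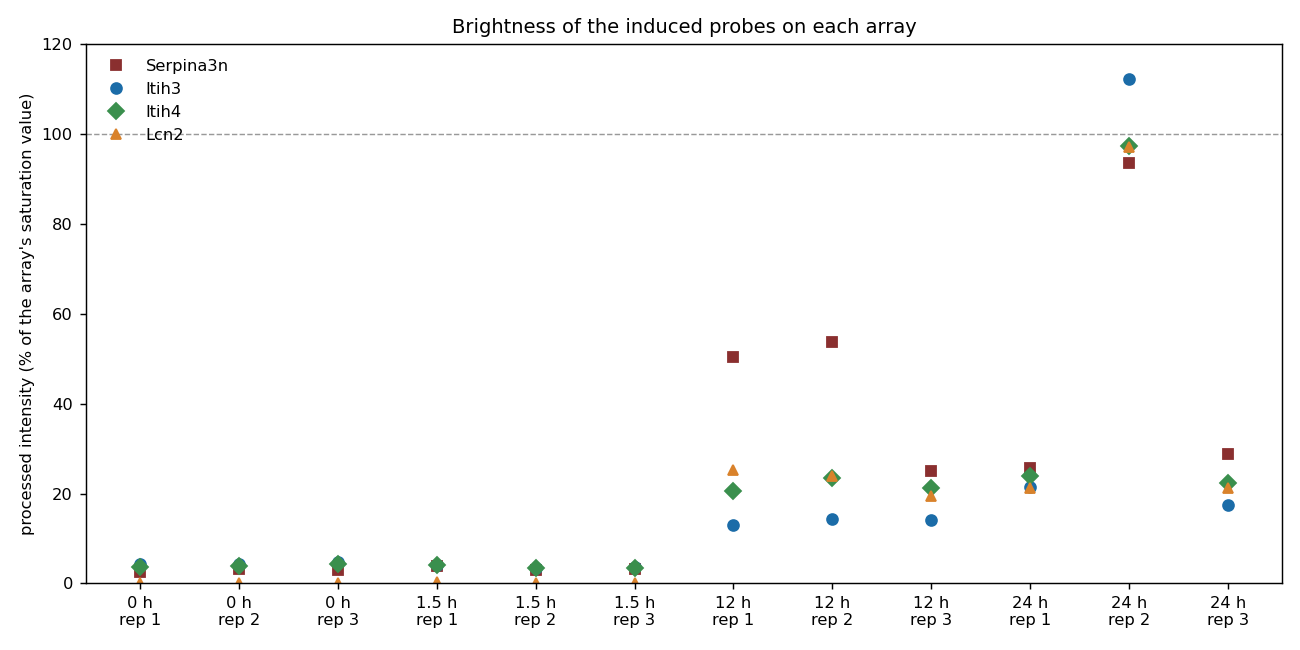
Processed intensity of the probes for Serpina3n, Itih3, Itih4 and Lcn2 as a percentage of each array's saturation value (y axis), for the 12 arrays by time and replicate (x axis). Points are single arrays, the dashed line marks 100%, and only 24 h replicate 2 lies near it, between 93.5% and 112%.

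The Serpina3 genes are a cluster of close copies on chromosome 12, so probes of one may also bind transcripts of another, and their separate values are uncertain in that respect. The array held probes for 5 of the other Serpina3 genes examined, and 4 of these rose at 12 h. Serpina3c read −3.71, −3.22 and −3.27 at 0 h and 2.17, 1.77 and 2.55 at 12 h, a rise of 5.56 ± 0.35 (limma, adjusted p = 1.57e-05). Serpina3f rose by 3.97 ± 0.73 (adjusted p = 0.00491) and Serpina3m by 1.37 ± 0.29 (adjusted p = 0.00995). Serpina3j was not well above background at 0 h and rose at least 1.63-fold (adjusted p = 0.00441), a call not kept with scan as a block (adjusted p = 0.0865). Serpina3k, of the same cluster, differed by 0.83 ± 0.54 (adjusted p = 0.292).

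From 12 h to 24 h, 3 of these 5 genes fell. Serpina3c fell by 3.24 ± 0.35 from 12 h (limma, adjusted p = 0.00192) and Serpina3f fell by 3.95 ± 0.73 (adjusted p = 0.0125), and both falls held with scan as a block (adjusted p = 0.00389 and 0.0132). The third, Serpina3m, fell by 1.05 ± 0.29 (adjusted p = 0.0421, or 0.302 with the block). Its signal on 24 h replicate 2 lay above that array's saturation value. Serpina3n was lower by 1.33 ± 0.43 over all arrays, by 0.77 without 24 h replicate 2 and by 0.21 within scan 3. Whether the copies differed from Serpina3n in their fall was not tested.

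Among the 26 serpins measured, 7 rose and 3 fell at 12 h, with a median difference of 0.50 against 0.41 over all probes. Serpina10, which with protein Z inhibits factor Xa, rose by 2.05 ± 0.24 (limma, adjusted p = 0.000446). Serpind1, heparin cofactor II, fell by 2.63 ± 0.36 (adjusted p = 0.00111). With scan as a block, 6 of the 10 calls held, among them Serpina10 but not Serpind1 (adjusted p = 0.0834). Against 0 h, 3 serpins rose and 2 fell at 24 h. Serpina6, the corticosteroid-binding globulin, fell by 3.99 ± 0.42 at 24 h (adjusted p = 0.000689, or 0.141 with the block). None of the 5 serpin calls at 24 h held with the block, where 43 of the 1698 calls over all probes were kept.

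Itih4 and Itih3 lie side by side on chromosome 14 with Itih1 next to them in the reference gene order. Itih4 encodes a plasma protein that, unlike its relatives, is not linked to bikunin and is itself an acute phase protein. Its brighter probe (NM_001159299) read 5.52, 5.42 and 5.54 at 0 h, 5.45, 5.33 and 5.53 at 1.5 h, 8.10, 8.14 and 8.27 at 12 h, and 8.16, 6.68 and 7.99 at 24 h. The first 6 arrays were tight and the 12 h arrays lay above all of them without overlap. The second probe (NM_018746) read 4.67, 5.55 and 5.43 at 0 h and 8.18, 7.97 and 8.24 at 12 h. Itih4 was 6.39-fold higher at 12 h by the first probe (log2 2.68 ± 0.35) and 7.54-fold by the second (2.91 ± 0.37). At 24 h the first probe was 4.33-fold higher than at 0 h, and 5.97-fold without 24 h replicate 2.

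Itih3, a heavy chain that is transferred to hyaluronan, read 5.79, 5.58 and 5.66 at 0 h and 5.48, 5.34 and 5.64 at 1.5 h. The 12 h arrays read 7.42, 7.45 and 7.69, and the 24 h arrays 8.0, 6.89 and 7.63. At 12 h Itih3 was 3.59-fold higher (log2 1.85 ± 0.29), and at 24 h 3.56-fold (1.83 ± 0.29) or 4.41-fold without replicate 2. Its 12 h and 24 h arrays overlapped. The difference between them was −0.01 over all arrays and turned to 0.29 without 24 h replicate 2, to 0.12 within scan 3 and to 0.66 after quantile normalization.

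Itih1, Itih2, Itih5 and Ambp, the other genes examined of the inter-alpha-trypsin inhibitor family, were not called at 12 h. Itih1 read 4.37, 4.31 and 4.40 at 0 h and 3.98, 3.80 and 4.08 at 12 h, a difference of −0.41 ± 0.30 that was not called (limma, adjusted p = 0.351). Itih2 differed by −0.25 ± 0.47 (adjusted p = 0.712), which turned to 0.80 with scan as a block (adjusted p = 0.239), and Itih5 by −0.05 ± 0.41 (adjusted p = 0.940). Ambp, whose product is cut into bikunin, the inhibitor chain itself, differed by 0.35 ± 0.35 (adjusted p = 0.477). None of these 4 was called at 24 h either, although Itih5 was lower there without 24 h replicate 2 (−1.39, adjusted p = 0.00273). Of the 10 genes in this list, 2 rose at 12 h, both hyaluronan synthases. Has1 rose by 0.99 ± 0.26 (adjusted p = 0.0273) and Has2 at least 1.15-fold (adjusted p = 0.0213), and neither call held with scan as a block (adjusted p = 0.289 and 0.207). The list's median was 0.67.

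**Figure D3:**
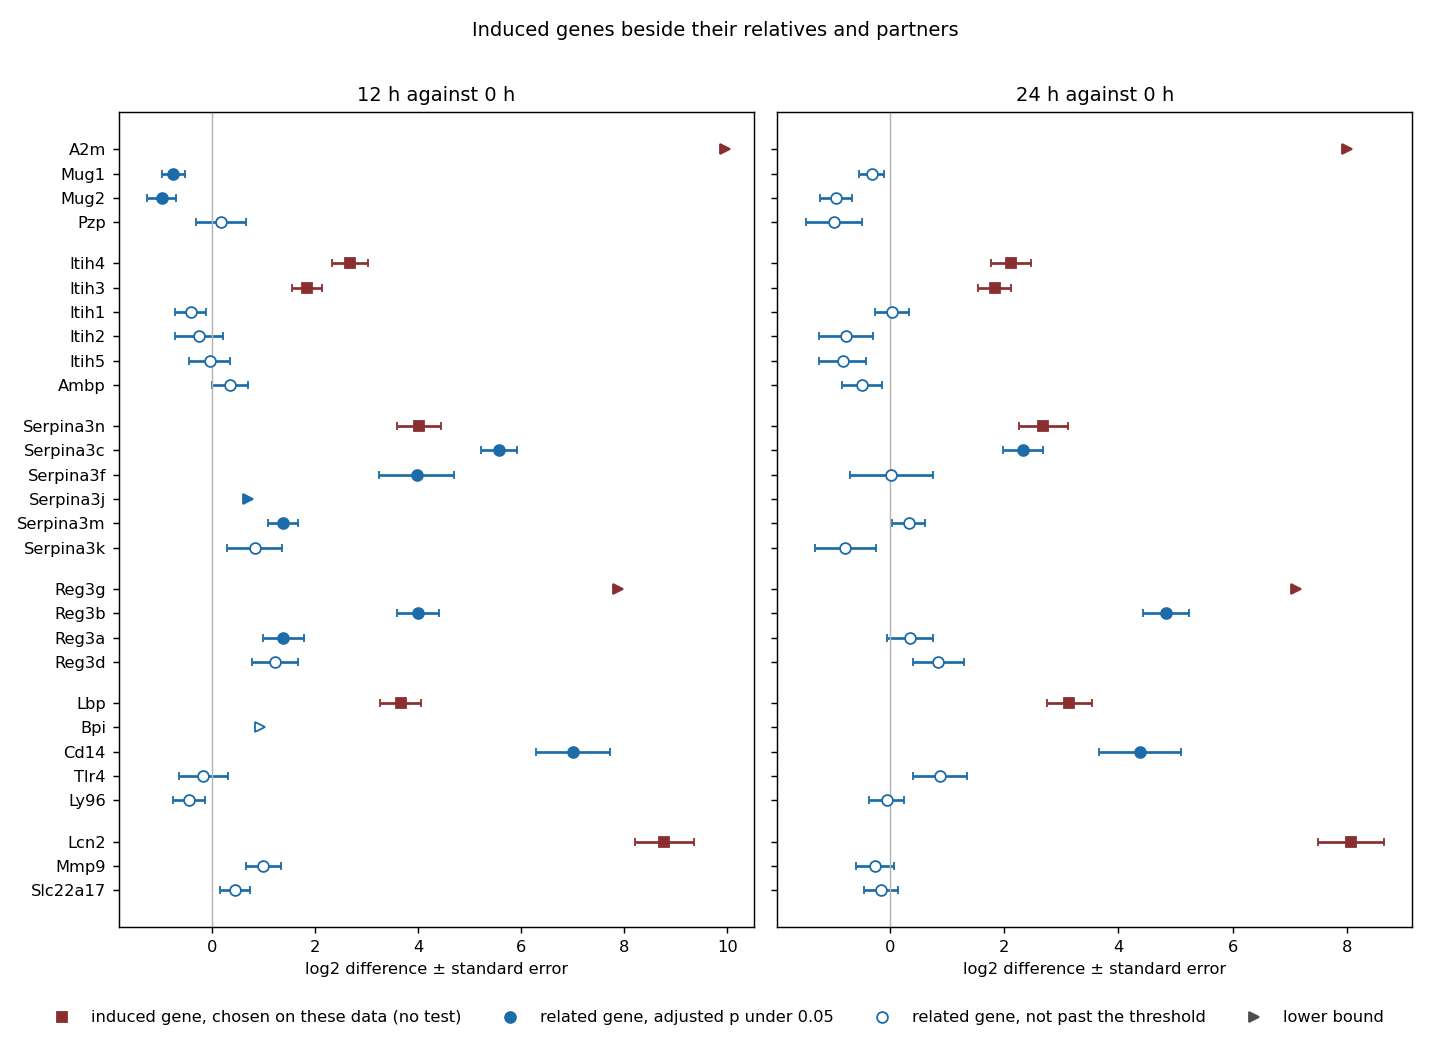
Log2 difference from 0 h at 12 h (left) and 24 h (right) for the 7 induced genes (red, squares where measured at 0 h, no test) and their relatives and partners (circles, filled where limma's adjusted p was under 0.05); bars are standard errors of the fit over 12 arrays. Triangles are lower bounds, without bars, for genes not well above background on any 0 h array, which have no point where no bound above 0 could be given. The bounds of A2m and Reg3g at 12 h are 9.95 and 7.88, Mug1 and Mug2 lie below 0, and Itih3 and Itih4 stand at 1.85 and 2.68 with Itih1 at −0.41.

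Lcn2, the siderophore-binding lipocalin, was dim but measurable at 0 h. It read −1.08, 0.61 and −1.16 at 0 h and 1.55, −0.22 and 0.17 at 1.5 h. At 12 h it read 8.39, 8.17 and 8.15, and at 24 h 7.98, 6.68 and 7.93. The early arrays were spread (SD 1.00 at 0 h) and overlapped, while the 12 h arrays were tight (SD 0.14). Lcn2 was 439-fold higher at 12 h (log2 8.78 ± 0.58) and 269-fold at 24 h (8.07 ± 0.58), or 360-fold without 24 h replicate 2. Within scan 2, 12 h exceeded 1.5 h by 8.31. With scan as a block the differences from 0 h were 10.39 at 12 h and 10.20 at 24 h, a chain that rests on 1.5 h replicate 1, the highest of the early arrays. That array exceeded the 0 h mean by 2.09 within scan 1. From 12 h to 24 h Lcn2 was lower by 0.71 ± 0.58, by 0.28 without 24 h replicate 2 and by 0.19 within scan 3.

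The receptor and the protease partner of Lcn2 were not called at 12 h. Slc22a17, a receptor proposed for it, differed by 0.44 ± 0.29 at 12 h (limma, adjusted p = 0.304). Mmp9, the protease that LCN2 binds and stabilises, differed by 1.00 ± 0.34 (adjusted p = 0.0685). Bdh2, whose product makes the mammalian siderophore, fell by 1.64 ± 0.33 at 12 h (adjusted p = 0.00804) and by 2.67 ± 0.33 at 24 h (adjusted p = 0.00165), but not past the threshold with scan as a block (adjusted p = 0.0896 and 0.146). Of the 11 lipocalins and partners, 3 rose at 12 h, all orosomucoids, which are plasma lipocalins of the acute phase. Orm1 rose by 2.37 ± 0.33 (adjusted p = 0.00128), Orm2 by 2.73 ± 0.53 (adjusted p = 0.00797) and Orm3 by 1.52 ± 0.41 (adjusted p = 0.0296), and all 3 calls held with the block. Close copies such as these may share probe signal.

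Reg3g encodes a C-type lectin best known from the intestine and pancreas. It read −6.43, −6.36 and −6.93 at 0 h, none well above background, and −6.65, −5.61 and −5.37 at 1.5 h, where the 2 arrays of scan 2 were called above it. At 12 h it read 3.24, 2.63 and 3.12, and at 24 h 2.92, 2.12 and 1.65. Late arrays of both times lay far above all early ones, and the 12 h and 24 h arrays overlapped. Reg3g was at least 235-fold higher at 12 h and at least 138-fold at 24 h than the lowest measurable 0 h signal, from measured differences of 9.57 ± 0.41 and 8.80 ± 0.41. With normexp the log2 differences were 4.99 and 4.54, and with scan as a block 8.34 and 7.51. Within scan 2, 12 h exceeded 1.5 h by 8.42. From 12 h to 24 h it was lower by 0.77 ± 0.41, and by 0.84 within scan 3.

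Of the 3 other Reg3 genes examined at 12 h, 2 rose. Reg1, Reg2 and Reg4, also in the list of Reg family and antibacterial genes, were not called at 12 h. Reg3b, the lectin directed at Gram-negative bacteria, read −0.30, −0.71 and −0.92 at 0 h, 3.45, 3.40 and 3.20 at 12 h, and 4.27, 4.84 and 3.46 at 24 h. Reg3b rose by 3.99 ± 0.40 at 12 h (limma, adjusted p = 0.000244, or 0.0236 with scan as a block). At 24 h the rise was 4.84 ± 0.40 (adjusted p = 0.000194, or 0.0837 with the block). Reg3a, of the same cluster on chromosome 6, rose by 1.39 ± 0.40 at 12 h (adjusted p = 0.0410, lost with the block at 0.334). Reg3d differed by 1.22 ± 0.45 (adjusted p = 0.0912). The promoter window of Reg3b held the STAT pattern 129 bases and the TATA pattern 29 bases before its start. The Reg3 genes are close copies, and signal shared between their probes was not tested.

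Other antibacterial genes rose beside them. Of the 17 measured in that list, 6 rose and 0 fell at 12 h, and the median was 0.91 against 0.41 over all probes. Ngp, a granule protein of developing neutrophils, was at least 20.1-fold higher (limma, adjusted p = 0.000984). Pglyrp1, a peptidoglycan-binding granule protein, rose by 2.54 ± 0.43 (adjusted p = 0.00343) and Camp, the cathelicidin, by 1.48 ± 0.32 (adjusted p = 0.0111). Hamp, the iron hormone hepcidin, rose by 1.78 ± 0.50 at 12 h (adjusted p = 0.0365) and fell by 2.32 ± 0.50 from 12 h to 24 h (adjusted p = 0.0215). With scan as a block, 3 of the 6 rises held, those of Reg3b, Ngp and Pglyrp1. Mbl2, a mannose-binding lectin, fell by 1.94 ± 0.36 at 24 h (adjusted p = 0.0134, or 0.624 with the block).

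Lbp starts the lipopolysaccharide pathway by passing the molecule to CD14, which hands it to TLR4 and its partner MD-2, the product of Ly96. The Lbp arrays read −2.38, −1.98 and −2.55 at 0 h, −1.57, −1.35 and −2.06 at 1.5 h, 1.60, 1.11 and 1.36 at 12 h, and 0.92, 1.64 and −0.04 at 24 h. Early and late arrays did not overlap, and the 24 h arrays were the most spread (SD 0.84). Lbp was 12.7-fold higher at 12 h (log2 3.66 ± 0.40) and 8.82-fold at 24 h (3.14 ± 0.40), or 6.68-fold without 24 h replicate 2, here the highest of the 3. With normexp the differences were 2.29 and 2.07. From 12 h to 24 h Lbp was lower by 0.52 ± 0.40, and by 0.92 without 24 h replicate 2.

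Cd14, the co-receptor, read −1.37, −1.46 and −1.86 at 0 h, 6.11, 4.71 and 5.49 at 12 h and 1.29, 4.78 and 2.36 at 24 h. Cd14 rose by 7.0 ± 0.72 at 12 h (limma, adjusted p = 0.000254, or 0.00503 with scan as a block) and fell by 2.63 ± 0.72 from 12 h to 24 h (adjusted p = 0.0410). The receptor itself was not called: Tlr4 differed by −0.17 ± 0.47 (adjusted p = 0.807) and Ly96 by −0.45 ± 0.31 (adjusted p = 0.317). Bpi, the neighbour of Lbp on chromosome 2 and its relative, differed by 1.05 ± 0.53 (adjusted p = 0.191) and was not well above background on any array of 0 h or 24 h. Of the 12 genes of this pathway measured, 4 rose and 0 fell at 12 h. The adaptor Myd88 rose by 1.79 ± 0.33 (adjusted p = 0.00484), the receptor Tlr2 by 1.55 ± 0.38 (adjusted p = 0.0201) and the brake Irak3 by 2.73 ± 0.71 (adjusted p = 0.0262). Of these 3, the Irak3 call held with the block (adjusted p = 0.00828). The summed signal of the 7 of 8 macrophage and Kupffer cell markers on the array was 3.79 to 4.66 (log2) at 0 h, 4.11 to 5.04 at 12 h and 5.08 to 5.56 at 24 h. By limma 1 of the 7 rose and 2 fell at 12 h, and all 7 were well above background on every array. Marco, one of these markers, had a mean of 1.65 at 0 h, 4.08 at 12 h and 4.54 at 24 h. From 0 h to 12 h the mean went from 2.85 to 1.57 for Csf1r and from 2.33 to 1.25 for Vsig4. It went from −1.05 to −2.29 for Adgre1 and from −2.08 to −2.67 for Timd4. Clec4f (−0.08 and 0.09) and Cd163 (−3.09 and −3.07) stayed near their 0 h means at 12 h. The sum adds linear signal, so bright markers weigh most in it. The part of these cells in the results on this pathway was not tested.

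Between 12 h and 24 h the 7 genes took different courses. A2m, Lcn2 and Serpina3n lay wholly lower at 24 h, where 26.9% of all probes did and the median over all probes was −0.48. Against 0 h the all-probe median moved to 0.16 (1.5 h), 0.41 (12 h) and −0.15 (24 h), and coding probes alone had a median of −0.14 for 24 h against 12 h. Reg3g, Itih3, Itih4 and Lbp overlapped. Lbp lay wholly lower once 24 h replicate 2 was left out, and Itih4 then differed by −0.10. Within scan 3 the differences were small for Lcn2, Serpina3n, Itih3 and Itih4, between −0.21 and 0.12, and larger for A2m, Lbp and Reg3g, between −2.15 and −0.84.

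**Figure D4:**
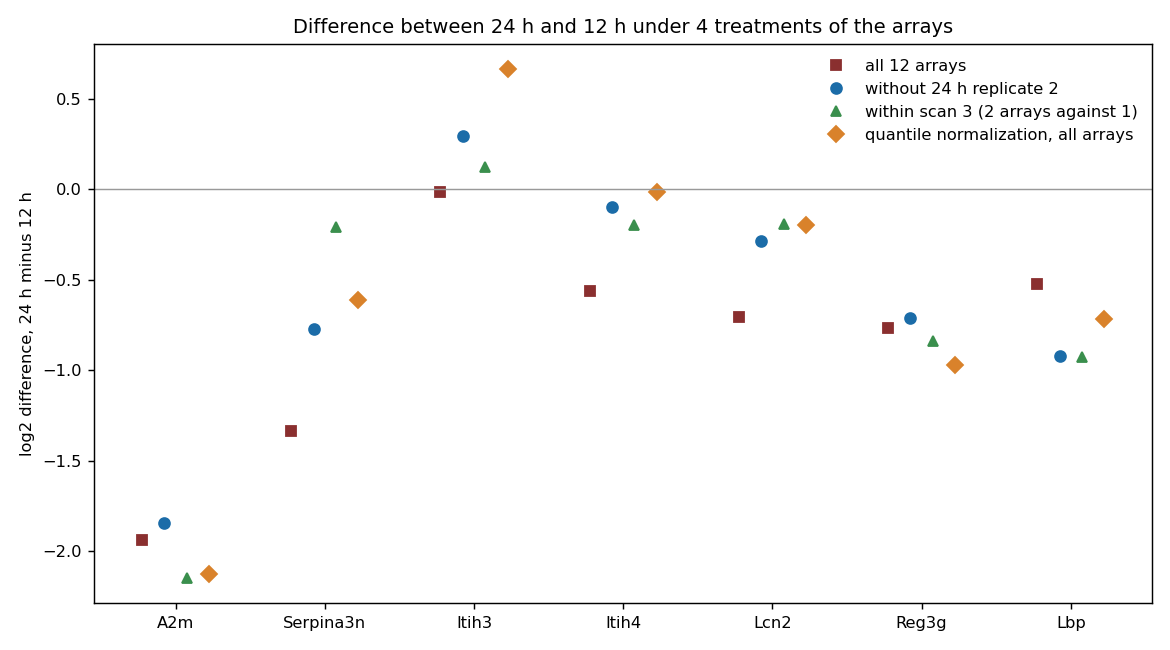
Log2 difference of 24 h minus 12 h (y axis) for the 7 genes (x axis) over all 12 arrays, without 24 h replicate 2, within scan 3 and after quantile normalization. A2m lies between −2.15 and −1.85 under all 4 treatments, Lbp and Reg3g between −0.97 and −0.52, and Itih3 between −0.01 and 0.66.

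At 1.5 h the differences from 0 h were small beside those of 12 h. Lcn2 differed by 1.04 ± 0.58, A2m by 0.91 ± 0.53, Reg3g by 0.69 ± 0.41 and Lbp by 0.64 ± 0.40. For A2m and Reg3g these are differences of signals at or near background, and within scan 1 they were 0.05 and −0.08. Serpina3n differed by 0.26 ± 0.43, Itih4 by −0.06 ± 0.35 and Itih3 by −0.19 ± 0.29. None of the 119 related genes measured passed the threshold at 1.5 h by limma, where 0.0225% of all probes did (7 of 31168, and 1999 at an unadjusted p under 0.05).

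Proteases that these inhibitors meet changed in both directions. Of 21 measured, 4 rose and 3 fell at 12 h, and the median was 0.29. Mmp8, the neutrophil collagenase, was at least 3.61-fold higher (limma, adjusted p = 0.000490), Mmp14 rose by 1.88 ± 0.37 (adjusted p = 0.00684) and Plat, the tissue plasminogen activator, by 1.36 ± 0.25 (adjusted p = 0.00513). Klkb1, plasma prekallikrein, fell by 3.15 ± 0.40 (adjusted p = 0.000764). Only the Mmp8 call of the 7 held with scan as a block. Of 16 inhibitors of other families, 2 rose and 0 fell at 12 h, with a median of −0.11. Timp1, an inhibitor of metalloproteases, rose by 3.98 ± 0.36 (adjusted p = 0.000135) and by 4.44 ± 0.36 at 24 h (adjusted p = 0.000176), both held with the block. Slpi, an inhibitor of neutrophil elastase, rose by 2.90 ± 0.66 (adjusted p = 0.0143) and by 3.57 ± 0.66 at 24 h (adjusted p = 0.0129, or 0.100 with the block).

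Over the 8 lists of relatives, partners and targets, 28 of 119 genes rose and 9 fell at 12 h, where 6.93% of all probes rose and 8.39% fell (15.3% in all). At 24 h 12 rose and 4 fell, where 2.83% of all probes rose and 2.62% fell (5.45% in all). From 12 h to 24 h 5 rose and 13 fell, where 6.32% of all probes rose and 6.47% fell (12.8% in all). The median of the 119 genes was 0.41 at 12 h, beside 0.41 over all probes and 0.24 over coding probes. With scan as a block 17 of the 37 calls at 12 h, 3 of the 16 at 24 h and 6 of the 18 between 24 h and 12 h held. Without 24 h replicate 2 all 37, all 16 and 15 of the 18 held, and the counts of genes passing were 67 at 12 h and 31 at 24 h.

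Genes of the signals that switch on the acute phase were measured apart. Of 23, 10 rose and 1 fell at 12 h, where 6.93% of all probes rose and 8.39% fell. At 24 h 9 rose and 0 fell, where 2.83% of all probes rose and 2.62% fell. The median of the 23 was 1.31 at 12 h, against 0.41 over all probes. Il1r1, the receptor of interleukin-1, rose by 3.98 ± 0.44 at 12 h (limma, adjusted p = 0.000342) and its antagonist Il1rn by 4.72 ± 0.64 (adjusted p = 0.00109). Osmr, the oncostatin M receptor, rose by 2.78 ± 0.38 (adjusted p = 0.00116) and Nfkbiz, a nuclear partner of NF-kB, by 2.57 ± 0.33 (adjusted p = 0.000766). With scan as a block 6 of the 11 calls at 12 h held, these 4 among them, and none of the 9 calls at 24 h did. Stat3 and its feedback inhibitor Socs3, singled out after their values were seen, rose by 1.54 ± 0.27 (adjusted p = 0.00420, or 0.0451 with the block) and 3.79 ± 0.59 (adjusted p = 0.00206, or 0.101 with the block) at 12 h. The Socs3 arrays read 1.71, 0.14 and 0.29 at 0 h, 2.78, 2.09 and 3.34 at 1.5 h, 5.46, 3.57 and 4.49 at 12 h and 4.36, 5.21 and 3.83 at 24 h. Its 1.5 h arrays already lay above those of 0 h, though the difference of 2.02 ± 0.59 did not pass at 1.5 h (adjusted p = 0.604). Other genes of this list had 12 h arrays that overlapped those of 0 h. Il6 read −2.63, 0.07 and −2.42 at 0 h and 2.03, −0.36 and 1.01 at 12 h. Pim1 read 1.50, 1.64 and 0.74 at 0 h and 2.85, 1.66 and 1.59 at 12 h. Cebpb read 6.08, 6.15 and 5.84 at 0 h and 6.90, 6.06 and 6.66 at 12 h.

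In whole liver, fewer or more cells of a type and a change of RNA per cell cannot be told apart. Neutrophils store LCN2, and neutrophil markers moved with time. The summed normalized signal of the 10 of 11 neutrophil markers on the array started at 0.79 to 1.23 (log2) at 0 h. It reached 3.05 to 3.51 by 1.5 h, 4.98 to 5.35 by 12 h and 4.76 to 5.40 by 24 h. By limma 6 of the 9 tested rose and 0 fell at 12 h, and 5 rose and 0 fell at 24 h. The sum adds linear signal, so bright markers, here S100a9 and S100a8, weigh most in it. At 1.5 h this sum lay above 0 h on every array. Lcn2 differed by 1.04 ± 0.58 between these 2 times, with arrays that overlapped. Of the defining markers, S100a8 and S100a9 were well above background on every array, and Ltf on 1 array each at 12 h and 24 h. Cxcr2 was so on no array at 0 h, on 2 of 3 at 1.5 h and at 12 h, and on 1 at 24 h. The share called well above background was 81.97% to 85.42% on the arrays of scan 2 and 62.76% to 72.44% on the others. The part of neutrophils in the Lcn2 difference was not tested.

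Pancreatic acinar and intestinal cells are the best known sources of REG3 proteins, and their markers were read beside Reg3g. The summed signal of 9 acinar markers was 2.91 to 3.31 at 0 h, 2.30 to 2.95 at 12 h and 1.75 to 3.13 at 24 h, and 0 of the 9 rose at 12 h or 24 h by limma. The sum of 6 intestinal markers was 4.79 to 4.96 at 0 h, 4.84 to 5.41 at 12 h and 5.13 to 5.44 at 24 h, where it lay above 0 h on every array. By limma 0 of 5 tested passed at 12 h or 24 h, and Cdx2 was not well above background on any array. Adipose markers did move: their sum was −0.72 to −0.12 at 0 h, 4.09 to 4.40 at 12 h and 2.42 to 5.85 at 24 h (2.42 to 3.45 without 24 h replicate 2), and 5 of 6 rose at 12 h. Adipoq, their defining gene, read −3.64 to −3.54 at 0 h and −3.53 to −2.51 at 12 h. The Fabp4 mean went from −1.54 at 0 h to 1.40 at 12 h. Means also went from −6.75 to −3.40 for Plin1, from −5.18 to −3.70 for Lep and from −6.09 to −3.32 for Cfd. Plin1, Lep and Cfd were not well above background on any 0 h array. Cidec, a lipid droplet gene that fatty hepatocytes also express, read −2.64 to −1.79 at 0 h and 3.66 to 4.21 at 12 h. The part of these markers in the results on the 7 genes was not tested.

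By the correlation of normalized signal over the 12 arrays, the named coding genes most like A2m were Serpina10 (r = 0.976), Qsox1 (0.976) and Saa3 (0.971). Those most like Lcn2 were Apcs (r = 0.995), which encodes serum amyloid P, Crybb3 (0.995) and Gpx3 (0.978). Reg3g was most like Cpne8 (r = 0.981), Crybb3 (0.981) and Qsox1 (0.976), and Lbp most like Slc37a1 (0.981), Cxcl1 (0.976) and Sult1e1 (0.974). Serpina3n and Itih4 shared Orm1 (r = 0.986 and 0.990) and Krtap11-1 (0.991 and 0.985) among their top 3. Itih3 was most like Ifitm2 (r = 0.983), Grhpr (0.981) and Ssr2 (0.980). For these 7 genes the 6 arrays of 0 h and 1.5 h and the 6 of 12 h and 24 h form separate clusters, and arrays share scans, so the coefficients are descriptions. Without 24 h replicate 2 the order changed: Cxcl1 came first for A2m (r = 0.989), Orm1 for Lcn2 (0.997) and Cpne8 for both Itih3 (0.991) and Itih4 (0.997).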

How the data were processed

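Total RNA of 12 mouse livers, 3 per time point, was measured on 1-colour arrays. The 39448 spots of each array were read with Agilent Feature Extraction 10.5.1.1 per the file headers, and the deposited files hold a linear processed intensity (background-subtracted and detrended), spot and local background intensities and quality marks. A second deposited table gives the authors' log2 values, whose normalization is not given in the sources used here and which lacks A2m and Reg3g. It served as an alternative.

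Spots flagged as outliers and control spots were left out, spots of a probe were averaged, and log2 intensities were centred on each array's 75th percentile. Of 37246 probes, 31168 were well above background on at least 3 arrays and were kept. No label gives a unit of depth for arrays, and 3 arrays per time point limit the precision. Names came from RefSeq accessions (GRCm38.p6 gene table): 21963 of 22522 coding probes had a symbol. A gene's main probe is its brightest on average. Limma 3.58.1 (R 4.3.3) fitted 1 mean per time point to all arrays with empirical Bayes moderation, two-sided tests, Benjamini-Hochberg adjustment over all probes kept and a call at 0.05. The value after ± is the fit's standard error. The steps were tested on simulated data. Where all arrays of the dimmer group were not well above background, "at least" folds use, per array, the higher of the probe's own signal and the lowest signal called well above background.

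The 7 genes and the lists of related genes and markers were chosen with earlier results of these data known. Named with values are the 7 genes, their nearest relatives and partners, and, per list and comparison, up to 4 genes past the threshold by adjusted p. A result that this rule would name is not reported here. Likeness is Pearson's r with the 16838 named coding genes kept. The alternatives were normexp background correction (offset 50), quantile normalization, the deposited log2 values, other filters, scan as a block or within scans, a replicate block, fits of 2 groups only, other probes and leaving out each array.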

Additional observations from a re-analysis of the deposited data

How the results depend on the processing

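The direction of all 7 genes at 12 h and 24 h against 0 h held under every alternative run, and all 7 stayed free of overlap when any single array was left out (7 to 7). Counts of calls depended on the processing. At 1.5 h, 7 of all probes passed, but 2 with normexp, 20 with the authors' deposited values, 17 with probes well above background on all arrays, 24 with scan as a block, 0 with the replicate block, 0 with only the 2 groups compared and 0 within scan 1. Leaving out 1 array gave 0 to 177 probes and 0 to 2 related genes, the upper values without 24 h replicate 2. Of the 7 genes, 1 did not overlap at 1.5 h and lay higher, where 16.4% of all probes did. With quantile normalization 3 did not overlap, 1 higher and 2 lower. With the deposited values, which hold 5 of the 7 genes, it was 3 as well, 1 higher and 2 lower. With 1 array left out the count was 1 to 4. Shares over all probes were not computed under these alternatives.

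At 12 h against 0 h, related genes and all probes passing were 37 and 4774, but 10 and 655 with normexp, 18 and 1301 with scan as a block, 68 and 15491 with only the 2 groups compared, and 20 to 67 and 2256 to 15269 with 1 array left out. At 24 h they were 16 and 1698, but 8 and 186 with normexp, 4 and 83 with scan as a block, 5 and 119 with only the 2 groups, and 11 to 31 and 415 to 5302 with 1 array left out, highest without 24 h replicate 2. At 24 h against 12 h they were 18 and 3986, but 4 and 180 with normexp, 10 and 2584 with no filter, 28 related genes with the stricter filter, 0 and 0 with only the 2 groups, 1 and 22 within scan 3, and 3 to 39 and 397 to 10647 with 1 array left out, highest without 24 h replicate 3. There 3 of the 7 genes did not overlap and lay lower, where 26.9% of all probes did. The count was 0 with normexp and 3 to 5 with 1 array left out. With the deposited values, which lack A2m and Reg3g, it was 1, Itih3, which lay higher at 24 h. Shares over all probes were not computed under these alternatives. The cause was not tested.

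The replicate number served as a block in 1 alternative. Correlations of same-numbered arrays ranged from −0.423 to 0.413, so the numbers were not taken to pair arrays. With the replicate block 29, 17 and 6 related genes passed at 12 h and 24 h against 0 h and at 24 h against 12 h, and 3607, 1161 and 1277 of all probes.

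Small differences turned sign. At 1.5 h, with normexp, A2m stood at −0.28, Reg3g at −0.31 and Lbp at −0.0001. Reg3g stood at −0.081 with scan as a block and within scan 1, and the second Itih4 probe at 0.18. At 24 h against 12 h Itih3 stood at 0.46 with normexp, 0.66 with quantile normalization and with the deposited values, 0.12 with scan as a block and within scan 3, 0.07 without 12 h replicate 3, and −0.26 to 0.29 over the fits that leave out 1 array. The comparison of 12 h with 1.5 h, chosen after seeing the data, kept its direction within scan 2 for all 7 genes. Dim signals near background limit A2m and Reg3g at 0 h and 1.5 h to bounds.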
